A study of Mus musculus with 41 samples.

Results

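Clustered protocadherins were described in mouse neural progenitor cultures in which 4 chromatin and transcription regulators had been targeted with Cas9 guides. The members are the 59 of 24410 genes in the deposited count table whose symbols begin with Pcdha, Pcdhb, Pcdhga, Pcdhgb or Pcdhgc followed by a number (or, in the alpha cluster, by c for its C-type genes). They were chosen by symbol and not by any measured value. There were 15 alpha, 22 beta and 22 gamma genes, and all 59 passed the filter on low counts that left 15204 genes in the test. On mouse chromosome 18 (GRCm38) the alpha genes lie between positions 36930285 and 37188897, the beta genes between 37264998 and 37521419 and the gamma genes between 37661775 and 37841873. RefSeq annotation matched 58 of the members. The remaining one, Pcdha7-g, is used under the name that the table gives it.

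Clustered protocadherins are cell surface proteins of the cadherin superfamily that bind copies of themselves on neighbouring cells. Single neurons express different combinations of them, and that diversity is known for letting a neuron tell its own branches from those of other neurons. Each alpha and gamma gene supplies 1 large variable exon with its own promoter, which is spliced to constant exons shared by its whole cluster. Each beta gene is a single exon and has no such constant part. In neurons, promoters are chosen with the help of the insulator protein CTCF and cohesin, and DNA methylation and repressive chromatin act on the unchosen ones. The C-type genes at the end of the alpha and gamma clusters are known for a more uniform expression.

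The cultures came from R1-iCas9 embryonic stem cells, a mouse line whose Cas9 is switched on by doxycycline. Pools of 5 guide RNAs were delivered at the start of differentiation against Eed or Ezh2, which encode subunits of Polycomb repressive complex 2, against Brd8, which encodes a bromodomain subunit of the TIP60 acetyltransferase complex, or against Nr6a1, which encodes an orphan nuclear receptor. The reference was a non-targeting control, here NT, which carried the same Cas9 and doxycycline. All cultures were led towards neural progenitors with bFGF, then the WNT activator CHIR99021 from day 2, then retinoic acid with the Hedgehog agonist SAG from day 3, and SAG from day 5. RNA was taken at days 7, 9 and 11 and made into ribodepleted, strand-specific libraries. There were 3 libraries for each guide and day, except that Nr6a1 had 2 on all days and Brd8 had 2 at day 9, giving 41 libraries in 15 groups. A guide pool edits a mixed population of cells, so each library averages over cells with different edits. The labels do not say whether replicates were separate cultures, and the p-values therefore measure the spread between libraries, which may be technical.

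Library totals ranged from 8581282 to 38240227 counts. CPM is a gene's counts scaled to the library's total after TMM scaling between libraries. A count of 0 allowed up to 0.0748 to 0.370 CPM (3 counts of that scaled total). That limit covers counting error only. The NT library of day 11 replicate 3 and the Eed-guide library of day 11 replicate 3 had the lowest agreement with their groups (highest correlation of log2 CPM with another library of the group, r = 0.939 and 0.945), against at least 0.959 for the other libraries. Neural progenitor markers such as Sox2, Nes and Pax6 were present in every group, with summed levels of 2310 to 3231 CPM over 10 genes, and the 8 pluripotency markers summed to 12.3 to 99 CPM. Under its own guides Nr6a1 averaged 123 ± 12.8 CPM at day 7 (n = 2), against 175 ± 5.81 CPM in NT libraries (n = 3), a log2 difference of -0.51 that edgeR did not call (adjusted p = 0.121) and that passed in 5 of 13 alternatives (adjusted p between 0.00279 and 1). The Nr6a1 differences at days 9 and 11 were -0.26 and -0.28. Brd8 averaged 90.1 ± 3.97 CPM with Brd8 guides at day 7, against 104 ± 7.21 CPM in NT libraries, and its differences at days 7, 9 and 11 were -0.21, 0.06 and -0.23. Those of Eed were 0.27, 0.12 and 0.30 and those of Ezh2 -0.03, 0.04 and 0.37. Of these 12 differences, edgeR called 1, that of Ezh2 at day 11 (adjusted p = 0.00736, higher than NT). A higher Ezh2 level at that day was not particular to its own guides. It averaged 176 ± 20.2 CPM with Ezh2 guides, 200 ± 4.45 with Eed guides and 197 ± 23.6 with Brd8 guides. With Nr6a1 guides it averaged 142 ± 15.3 CPM and in NT 136 ± 17.1 CPM. RNA levels do not test whether a site was edited, and groups are called by their guides below.

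Alpha and gamma genes have exons in common, and most of their deposited values were not whole numbers. In the GENCODE annotation of GRCm38, matched to RefSeq transcripts, alpha transcripts share 2860 bases, which make up 48.6% to 54.9% of their length, and gamma transcripts share 2119 bases, or 41.7% to 45.5%. Among beta genes, only Pcdhb21 and Pcdhb22 had shared bases there, 455 each (9.67% and 6.88% of their length). Values that were not whole numbers made up 92% of the alpha values, 99.8% of the gamma values and 18.7% of the beta values, against 2.79% for all other genes. Summed over a cluster, the beta values came back to a whole number in 41 of 41 libraries (within 0.02 counts), the alpha values in 4 and the gamma values in 2. The counting tool is not named, and the source of the fractions was not tested. Reads from the shared exons cannot be assigned to a single alpha or gamma gene by sequence alone, so levels of these genes are estimates that may share reads.

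Counts of 0 were most frequent among alpha genes for Pcdha6, Pcdha7 and Pcdha7-g, of which the last has no annotated position here. Pcdha6 was at 0 in 17 libraries, Pcdha7 in 16 and Pcdha7-g in 13. At least 1 of the 3 was at 0 in 33 of 41 libraries, and in no library were all 3 at 0. Their sum ranged between 4.90 and 43.7 CPM over the libraries, and was 10.4, 28.5 and 43.7 CPM within NT day 11. At day 11, Pcdha7-g had 7.35, 5.33 and 0 CPM in Eed-guide libraries, against 0 CPM in each of the 3 NT libraries, while Pcdha7 had 0, 0 and 12.7 CPM in Eed-guide libraries, against 10.4, 13.9 and 17.8 CPM in NT libraries. The name that held the counts thus differed between libraries of the same group, and the cause was not tested. Calls on these 3 genes are counted below but not described as changes of a gene. Zeros were not confined to them. Pcdha4 was at 0 in Eed day 7 replicate 3, against 240 and 85.4 counts in the other Eed-guide libraries of that day. Pcdha1 was at 0 in Eed day 11 replicate 3, against 171 and 111 counts in the other Eed-guide libraries of that day. Whether the split of reads also affects other alpha genes was not tested.

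**Figure D1:**
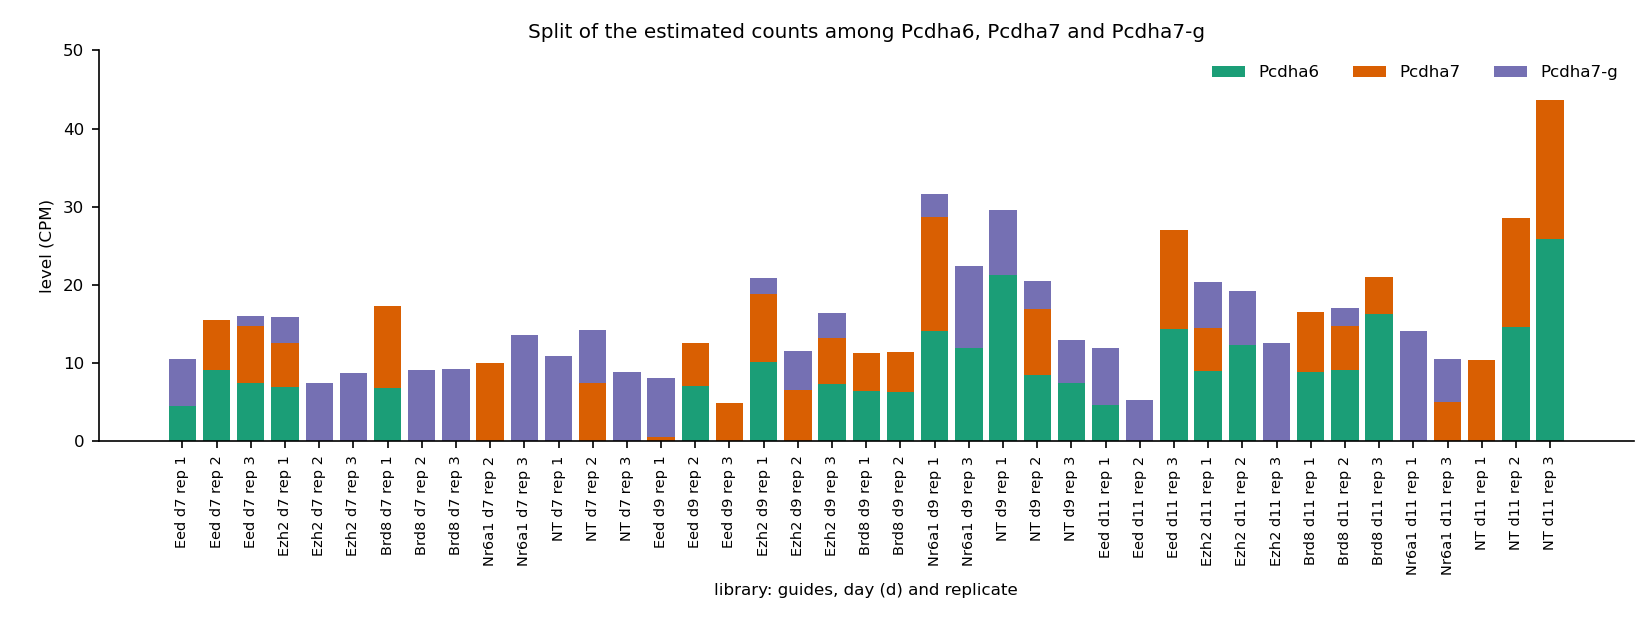
CPM of Pcdha6, Pcdha7 and Pcdha7-g stacked for each of the 41 libraries, ordered by day and guide. At least 1 of the 3 names is at 0 in 33 libraries, whereas the stacked height stays between 4.90 and 43.7 CPM.

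Expressed per kilobase of transcript, the best covered member was the gamma C-type gene Pcdhgc3, at 23 CPM per kb over all libraries. It was followed by Pcdhb11 at 14.4, Pcdhb16 at 11.7, Pcdhga7 at 9.83 and Pcdhga5 at 9.06 CPM per kb. The highest alpha genes were Pcdha4 at 6.15 and Pcdha3 at 4.09 CPM per kb. Beta and gamma genes had similar median levels of 4.67 and 4.32 CPM per kb, and the median alpha gene had 1.48 CPM per kb. Lengths were those of the matched GENCODE transcripts. For beta genes such as Pcdhb14 (8695 bases) and Pcdhb22 (6609 bases) they exceeded the RefSeq span. Ranks and medians per kb therefore depend on the annotation. Pcdhb1, at the start of the beta cluster, was at 0 in 15 libraries with a mean of 0.272 CPM.

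In NT cultures all 3 clusters were higher at the end of the time course than at its start, with different timing. The alpha genes together had 142 ± 8.93, 199 ± 20.4 and 210 ± 20.8 CPM at days 7, 9 and 11 (SD, n = 3 each). Beta genes summed to 459 ± 27.9, 554 ± 45.5 and 700 ± 41.8 CPM, and gamma genes to 550 ± 54.1, 558 ± 10.9 and 776 ± 26.0 CPM. Most of the alpha difference lay between days 7 and 9 and most of the gamma difference between days 9 and 11, while the beta sum was higher at each later day. Day 11 stood at 1.48, 1.53 and 1.41 times the day 7 level for alpha, beta and gamma. In bulk RNA, a larger share of cells expressing these genes and more RNA per cell cannot be told apart.

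**Figure D2:**
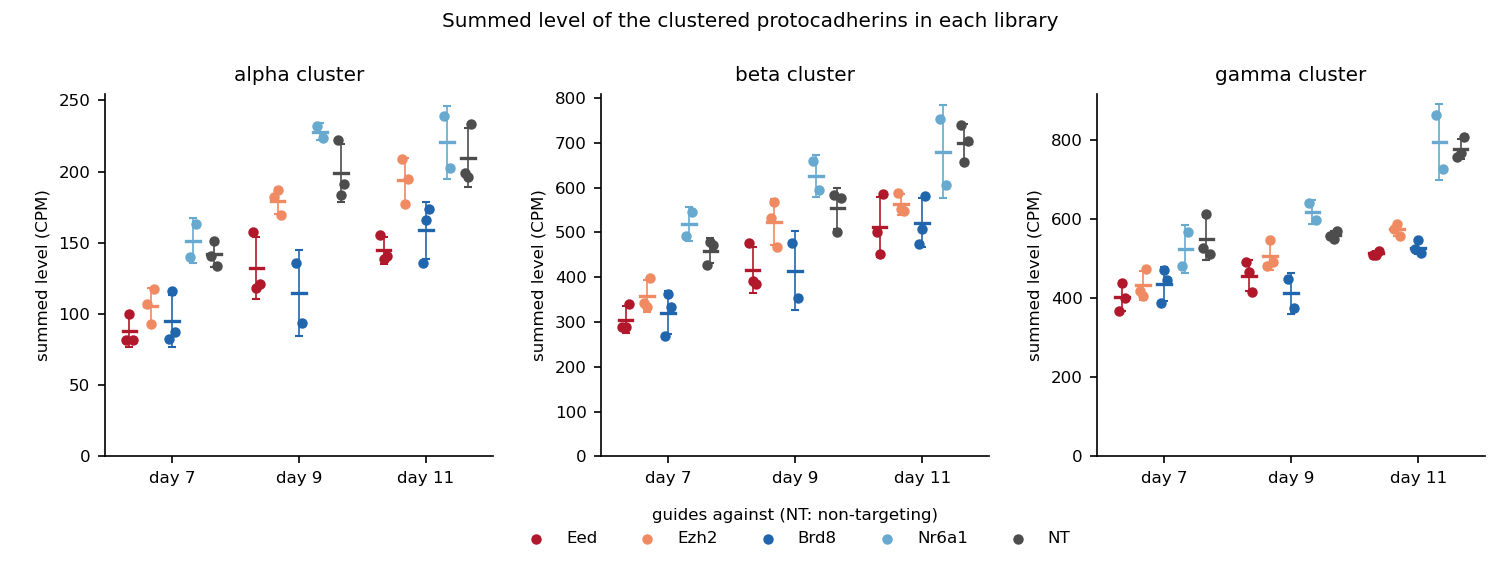
Summed CPM of the alpha, beta and gamma genes in each library (points), with group means (bars) and SD (whiskers, n = 3, or 2 for Nr6a1 and for Brd8 at day 9), by guide at days 7, 9 and 11. Eed-guide and Brd8-guide libraries all lie below the NT libraries of the same day in each cluster, and NT sums are higher at day 11 than at day 7.

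Between day 11 and day 7 of NT, 24 of 59 members rose and 1 fell (edgeR quasi-likelihood test, adjusted p under 0.05 over all 15204 genes). Over all genes tested, 21.9% rose and 23.3% fell, so the share that rose was above that background and the share that fell below it. In 29 of 59 members all day 11 libraries lay above all day 7 libraries, against 24.2% of all genes. The member that fell was Pcdha7-g, one of the 3 names with frequent counts of 0. The median log2 difference over the 59 members was 0.49, and over all genes it was about 0.

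Pcdhgc3 was the member with the smallest p. It had 175, 201 and 186 CPM at day 11, against 55.5, 69.6 and 58.7 CPM at day 7. The groups did not overlap, with a log2 difference of 1.62 ± 0.127 (SE, adjusted p = 1.87e-13), or 3.07-fold. The rise passed in both steps, at 0.73 ± 0.126 for day 9 over day 7 (adjusted p = 2.22e-05) and 0.89 ± 0.123 for day 11 over day 9 (adjusted p = 6.95e-07). Its share of all gamma CPM was 11.1%, 18.1% and 24.2% at days 7, 9 and 11.

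Pcdhgc4, the neighbouring C-type gene, had 36.1, 35.0 and 40.1 CPM at day 11, against 13.3, 16.2 and 9.24 CPM at day 7. All day 11 libraries were above all day 7 libraries (log2 difference 1.52 ± 0.241, adjusted p = 1.86e-06). The remaining gamma C-type gene, Pcdhgc5, had 4.65, 7.61 and 8.65 CPM at day 11, against 5.56, 4.79 and 3.70 CPM at day 7, with overlapping groups and no call. Together the C-type genes summed to 78.9, 131 and 231 CPM at days 7, 9 and 11. The A-type gamma genes summed to 311, 300 and 383 CPM and the B-type genes to 160, 128 and 162 CPM at the same days. By day 11 against day 7, 2 of 3 C-type, 4 of 12 A-type and 0 of 7 B-type genes had risen, against 21.9% of all genes.

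Among the beta genes, 14 of 22 rose between days 7 and 11, against 21.9% of all genes. Most of the members' excess over that background lay in this cluster. Pcdhb10 had 32.4, 36.1 and 44.9 CPM at day 11, against 11.5, 11.3 and 8.93 CPM at day 7, a log2 difference of 1.82 ± 0.231 (adjusted p = 2.06e-08). Pcdhb7 had 30.7, 22.5 and 34.8 CPM at day 11, against 7.92, 9.79 and 7.70 CPM at day 7 (1.80 ± 0.231, adjusted p = 2.87e-08). Pcdhb9 had 21.4, 18.4 and 15.7 CPM at day 11, against 5.75, 5.41 and 4.82 CPM at day 7 (1.79 ± 0.318, adjusted p = 1.22e-05). In none of these 3 genes did the groups overlap. The genes that rose lay mostly on the alpha side of the cluster. Of Pcdhb2 to Pcdhb11, 10 of 10 rose with a median log2 difference of 1.17, and of Pcdhb12 to Pcdhb22, 4 of 11 rose with a median of 0.33. This split was chosen after the values were seen and was not tested. Across the 22 beta genes, the log2 difference and the order along the chromosome had a Spearman rho of -0.62, given as a description since neighbouring genes are not independent.

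Among alpha genes, 4 of 15 rose, against 21.9% of all genes, so the alpha share was close to that background. They were Pcdha2, Pcdha3, Pcdha4 and Pcdha6, the last being one of the 3 names with frequent counts of 0. Pcdha2 passed at a log2 difference of 0.86 and, without NT day 7 replicate 1 or 3 or NT day 11 replicate 1 or 3, was at 0.68, 0.85, 0.82 and 0.82 and did not. Pcdha4, the alpha gene with the highest level, had 40.7, 44.7 and 48.9 CPM at day 11, against 21.2, 15.6 and 15.9 CPM at day 7 (log2 difference 1.33 ± 0.374, adjusted p = 0.00336). It had 50.3, 44.1 and 41.5 CPM at day 9, so it was already at its later level 2 days earlier. Pcdha3 showed a log2 difference of 0.90 ± 0.254 between days 11 and 7 (adjusted p = 0.00351). The alpha C-type genes Pcdhac1 and Pcdhac2 did not pass. Pcdhac1 had 12.9, 5.29 and 17.6 CPM at day 11, against 10.6, 13.3 and 7.80 CPM at day 7.

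**Figure D3:**
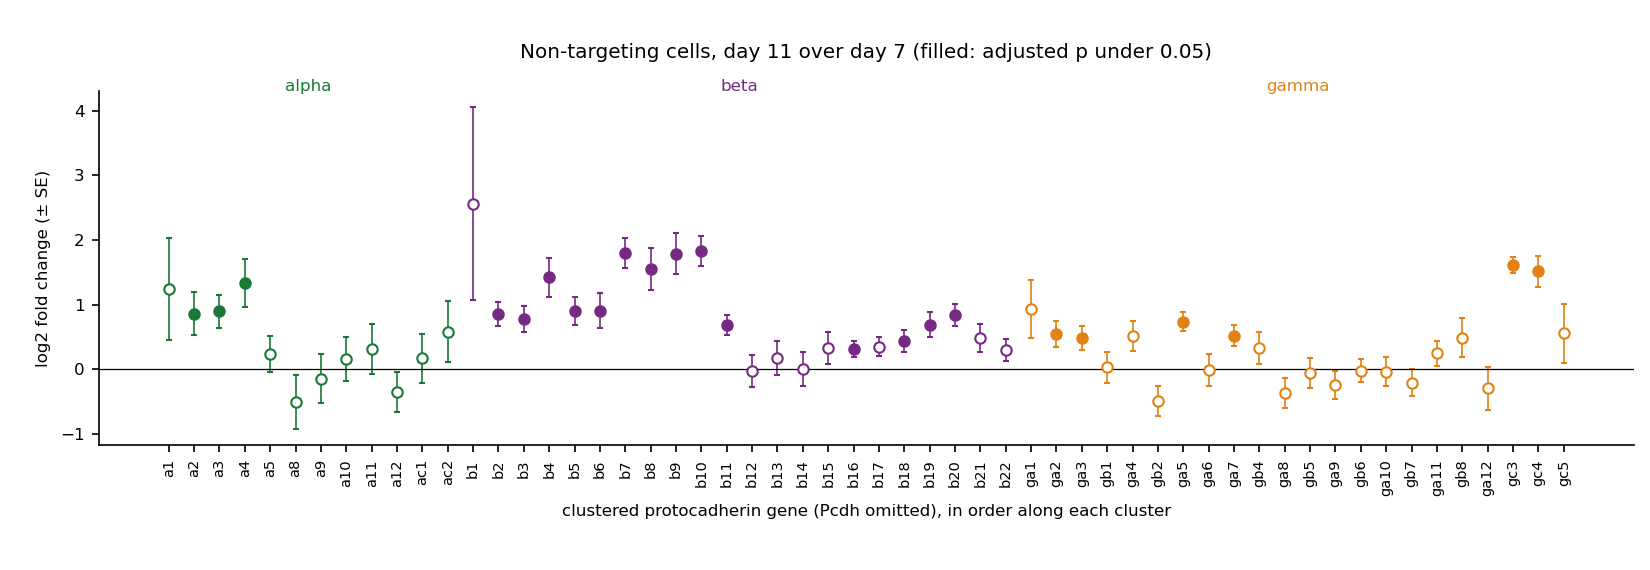
Log2 difference with its SE between NT day 11 and NT day 7 for the members other than Pcdha6, Pcdha7 and Pcdha7-g, in order along the alpha, beta and gamma clusters, with those past an adjusted p of 0.05 filled. Pcdhb2 to Pcdhb11 all lie above 0 and passed, and Pcdhgc3 and Pcdhgc4 stand at 1.62 and 1.52 near the end of the gamma cluster.

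In the single steps, 16 members rose and 3 fell between NT days 7 and 9, against 14.5% and 13.3% of all genes. The 3 that fell were the A-type gamma genes Pcdhga8, Pcdhga10 and Pcdhga12, and 11 of the 16 that rose were beta genes. Pcdhga8 had 19.4, 18.1 and 21.6 CPM at day 9, against 28.9, 36.4 and 34.2 CPM at day 7 (log2 difference -0.75 ± 0.23, adjusted p = 0.0122). Without NT day 7 replicate 2 or NT day 9 replicate 2 the difference in Pcdhga8 was -0.68 or -0.69 and did not pass. Pcdhga10 and Pcdhga12 did not pass without NT day 7 replicate 1 (-0.59 and -0.94) or 2 (-0.46 and -0.77) or NT day 9 replicate 2 (-0.56 and -0.85) or 3 (-0.54 and -0.84). Without NT day 7 replicate 1 the 19 calls became 10. Between days 9 and 11, 7 members rose and 1 fell, against 10.6% and 12.9% of all genes. Those 8 calls became 5 without NT day 9 replicate 1 or NT day 11 replicate 1, and 3 without NT day 9 replicate 2.

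Markers of other cell types moved over the same days. Of 12 neuron markers such as Tubb3, Dcx and Stmn2, 10 rose between NT days 7 and 9 and 5 rose and 2 fell between days 7 and 11. Of 7 tested oligodendrocyte precursor markers such as Pdgfra, Sox10 and Olig1, 6 rose between days 7 and 11, with sums of 330 to 482 CPM at day 11, against 37.4 to 43.6 CPM at day 7, when Bcas1 and Neu4 were at 0. Of 7 tested astroglial markers, 6 rose, with sums of 456 to 506 CPM at day 11, against 211 to 231 CPM at day 7, when S100b was at 0. The part of these cell types in the protocadherin differences was not tested.

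In Eed-guide cultures the clustered protocadherins were lower than in NT at all 3 days. Alpha genes summed to 87.8 ± 10.8 CPM in Eed-guide libraries at day 7, against 142 ± 8.93 CPM in NT libraries, which is 0.619 times the NT level (n = 3 each). Beta genes summed to 305 ± 29.7 CPM against 459 ± 27.9 CPM in NT (0.665 times), and gamma genes to 402 ± 34.8 CPM against 550 ± 54.1 CPM in NT (0.730 times). At day 11 the alpha, beta and gamma sums in Eed-guide libraries were 0.691, 0.731 and 0.660 times those of NT. In every cluster and on every day, each Eed-guide library lay below each NT library. Leaving out the pair of day 11 libraries with the lowest agreement gave 0.744, 0.681 and 0.668 times, again with no overlap.

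At day 7, 14 of 59 members fell in Eed-guide libraries and 0 rose, against 5.76% and 2.90% of all genes; 1 member was higher and 39 were lower at an unadjusted p under 0.05, and DESeq2 called 1 higher and 18 lower. In 40 members all Eed-guide libraries lay below all NT libraries, against 14.8% of all genes. Of the 14, 9 were beta, 3 gamma and 2 alpha genes. Pcdhb10, one of the beta genes that rose over time in NT, had 6.29, 1.85 and 5.43 CPM in Eed-guide libraries, against 11.5, 11.3 and 8.93 CPM in NT libraries (log2 difference -1.19 ± 0.254, adjusted p = 0.00189). Pcdhb17 had 26.5, 19.7 and 31.5 CPM in Eed-guide libraries, against 40.3, 50.0 and 38.3 CPM in NT libraries (-0.72 ± 0.156, adjusted p = 0.00215). Both stood clear of NT in every library.

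Pcdhb6 had 3.07, 2.84 and 2.28 CPM in Eed-guide libraries at day 7, against 7.05, 4.89 and 6.47 CPM in NT libraries (-1.17 ± 0.291, adjusted p = 0.0075). The gamma B-type gene Pcdhgb2 had 15.1, 16.2 and 13.5 CPM in Eed-guide libraries, against 29.7, 26.9 and 27.4 CPM in NT libraries (-0.91 ± 0.238, adjusted p = 0.0111). Neither gene's groups overlapped. These 4 genes passed under each of the 14 alternative settings tried for them, libraries left out included. The count of 14 became 7 without Eed day 7 replicate 1, 6 without NT day 7 replicate 2 and 8 without NT day 7 replicate 3.

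At day 9, 5 members fell in Eed-guide libraries and 0 rose, against 2.16% and 2.99% of all genes; 0 were higher and 22 lower at an unadjusted p under 0.05, and DESeq2 called 7. They were Pcdhgb7, Pcdhga5, Pcdhb3, Pcdhb18 and Pcdhb19. Pcdhgb7 had 11.7, 12.4 and 10.3 CPM in Eed-guide libraries, against 22.2, 22 and 17.2 CPM in NT libraries (-0.84 ± 0.207, adjusted p = 0.0142). The groups did not overlap, but the gene did not pass without Eed day 9 replicate 3 (-0.77) or NT day 9 replicate 1 (-0.78). The count of 5 rested on single libraries. It was 9, 2 and 0 without Eed-guide replicates 1, 2 and 3 of that day and 0, 3 and 1 without NT replicates 1, 2 and 3. In 29 members, against 12.3% of all genes, all Eed-guide libraries lay below all NT libraries.

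At day 11, 22 members fell in Eed-guide libraries and 1 rose, against 10.6% and 13.3% of all genes. The one that rose was Pcdha7-g, one of the 3 names with frequent counts of 0. Of the 22, 11 were gamma, 8 beta and 3 alpha genes, and 24 members, against 15.4% of all genes, had no overlap with NT and were lower. The beta gene Pcdhb15 had 13.2, 8.85 and 10.1 CPM in Eed-guide libraries, against 22.5, 22 and 22.7 CPM in NT libraries (-1.05 ± 0.246, adjusted p = 0.00138). The gamma B-type gene Pcdhgb8 had 7.88, 12.4 and 13.2 CPM in Eed-guide libraries, against 22.8, 21.5 and 35.5 CPM in NT libraries (-1.27 ± 0.307, adjusted p = 0.00196). In both genes every Eed-guide library was below every NT library.

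Pcdhb20 had 19.4, 16.1 and 26.9 CPM in Eed-guide libraries at day 11, against 35.5, 33.3 and 32.5 CPM in NT libraries (-0.71 ± 0.171, adjusted p = 0.00196). The A-type gene Pcdhga5 had 42.5, 39.1 and 46.9 CPM in Eed-guide libraries, against 62.2, 57.1 and 71.3 CPM in NT libraries (-0.57 ± 0.147, adjusted p = 0.00361). Pcdhb7 had 13.5, 16.2 and 19.9 CPM in Eed-guide libraries, against 30.7, 22.5 and 34.8 CPM in NT libraries (-0.84 ± 0.221, adjusted p = 0.00437). None of these 3 genes overlapped with NT. The C-type gene Pcdhgc4 had 20.3, 22 and 18.8 CPM in Eed-guide libraries, against 36.1, 35.0 and 40.1 CPM in NT libraries (-0.86 ± 0.234, adjusted p = 0.00563), and was -0.76 and did not pass without the pair of low-agreement libraries. Among alpha genes, Pcdha10 had 6.0, 4.84 and 4.92 CPM in Eed-guide libraries, against 12.3, 9.92 and 13.2 CPM in NT libraries (-1.16 ± 0.344, adjusted p = 0.0114). Its groups did not overlap, and it was -1.03 and did not pass without the low-agreement pair. The 23 calls became 15 without Eed day 11 replicate 1 and 16 without replicate 2. They were 17 without the low-agreement pair, 16 with only the groups compared in the fit and 27 with DESeq2.

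Neuron markers were also lower in Eed-guide libraries, most clearly at day 7. At that day 10 of 12 fell, with sums of 2623 to 3251 CPM in Eed-guide libraries, against 4350 to 4607 CPM in NT libraries. At day 9, 3 of 12 fell, and the sums were 4550 to 5976 CPM in Eed-guide libraries, against 6186 to 7182 CPM in NT libraries. At day 11, 2 of 12 fell, with 4655 to 4892 CPM in Eed-guide libraries, against 5462 to 5883 CPM in NT libraries. No neuron marker was at 0 in any group. Markers of epithelial cells such as Krt8 and Epcam stood higher at day 11, where 6 of 8 rose and the sum was 194 to 382 CPM in Eed-guide libraries, against 15.2 to 26.1 CPM in NT libraries, with Krt4 at 0 in NT. At day 7 their sum was also above NT, at 65.0 to 126 CPM against 29.5 to 37.8 CPM. The day 9 sums overlapped with NT. At day 11, 4 of 7 oligodendrocyte precursor markers fell and 5 of 7 astroglial markers fell while 1 rose. At days 7 and 9 both sums had been above NT. For oligodendrocyte precursors they were 54.6 to 65.6 and 72.1 to 130 CPM, against 37.4 to 43.6 and 46.0 to 67.6 CPM in NT. For astroglia they were 278 to 310 and 287 to 310 CPM, against 211 to 231 and 230 to 258 CPM in NT. At day 11 the 10 neural progenitor markers summed to 2310 to 2516 CPM in Eed-guide libraries, against 2990 to 3059 CPM in NT libraries. In that list edgeR gave 15 calls higher and 17 lower over the 12 comparisons with NT. A lower sum therefore does not mean that every marker was lower. The part of these cell types in the lower protocadherin levels was not tested.

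**Figure D4:**
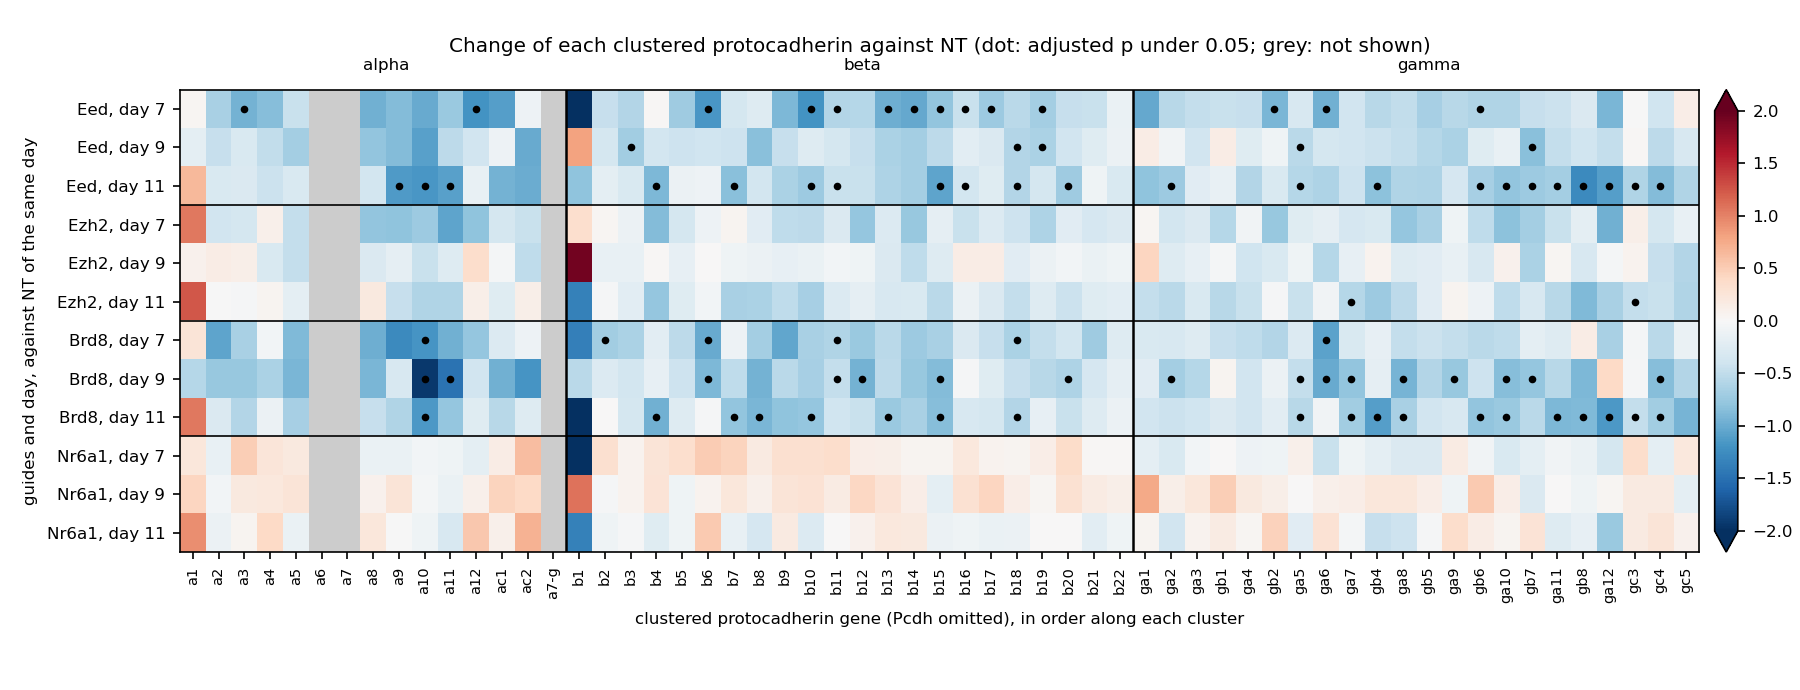
Log2 difference from NT of the same day for each member (columns, in order along each cluster) with Eed, Ezh2, Brd8 and Nr6a1 guides at days 7, 9 and 11 (rows), from blue (lower) to red (higher), with dots for calls past an adjusted p of 0.05 and grey for Pcdha6, Pcdha7 and Pcdha7-g, which are not shown. Of all 59 members, 54 to 57 were below 0 in the Eed rows and 55 to 56 in the Brd8 rows, and calls in the Ezh2 rows are few. Over all genes the median log2 difference in the Eed and Brd8 comparisons was between -0.004 and 0.02.

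Brd8-guide cultures, compared with the same NT libraries, also had lower levels of all 3 clusters. At day 9, alpha genes summed to 115 ± 29.9 CPM in Brd8-guide libraries (n = 2), against 199 ± 20.4 CPM in NT libraries (n = 3), which is 0.576 times the NT level. Beta genes were at 415 ± 87.5 CPM in Brd8-guide libraries, against 554 ± 45.5 CPM in NT libraries, and gamma genes at 412 ± 52.5 CPM, against 558 ± 10.9 CPM in NT libraries. At day 7 the alpha, beta and gamma sums were 0.671, 0.699 and 0.791 times those of NT, and at day 11 they were 0.757, 0.745 and 0.679 times. Each Brd8-guide library lay below each NT library of its day in every cluster. Without the day 11 NT library of low agreement the day 11 ratios were 0.803, 0.746 and 0.692.

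At day 7, 6 members fell in Brd8-guide libraries and 0 rose, against 3.45% and 1.30% of all genes; 1 was higher and 33 lower at an unadjusted p under 0.05, and DESeq2 called 12. In 29 members, against 13.6% of all genes, all Brd8-guide libraries lay below all NT libraries. The A-type gene Pcdhga6 had 6.05, 9.97 and 7.75 CPM in Brd8-guide libraries, against 15.6, 19.5 and 14.8 CPM in NT libraries (-1.07 ± 0.26, adjusted p = 0.0101). Pcdhb11 had 27.2, 46.3 and 36.8 CPM in Brd8-guide libraries, against 48.0, 53.4 and 65.9 CPM in NT libraries (-0.60 ± 0.154, adjusted p = 0.0156). Neither gene overlapped with NT. Without Brd8 day 7 replicate 1, Pcdhga6 was at -0.91 and Pcdhb11 at -0.42, neither passed, and the count of 6 was 0. Pcdhga6 was at -0.94 without NT replicate 2 and Pcdhb11 at -0.46 without NT replicate 3, again without passing, and the count was 3, 2 and 1 without NT replicates 1, 2 and 3.

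At day 9, 17 members fell in Brd8-guide libraries, one of them Pcdha7-g, and 0 rose, against 7.81% and 7.72% of all genes; 0 were higher and 32 lower at an unadjusted p under 0.05, and DESeq2 called 0 higher. In 34 members, against 22.2% of all genes, both Brd8-guide libraries lay below all NT libraries. Pcdha10 had 4.44 and 1.68 CPM in Brd8-guide libraries, against 11.1, 10.9 and 12 CPM in NT libraries (-1.93 ± 0.414, adjusted p = 0.00104). Pcdhga7 had 31.4 and 29.0 CPM in Brd8-guide libraries, against 49.6, 44.2 and 62.3 CPM in NT libraries (-0.78 ± 0.183, adjusted p = 0.00237). Both genes were below NT in each library. Without Brd8 day 9 replicate 2, which leaves 1 library assumed to vary like the other groups, Pcdha10 was at -1.35 and Pcdhga7 at -0.73, neither passed, and 2 members were called in place of 17. Without NT replicates 1, 2 and 3 of that day, 7, 11 and 7 members were called.

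At day 11, 19 members fell in Brd8-guide libraries and 0 rose, against 7.48% and 10.3% of all genes; 0 were higher and 30 lower at an unadjusted p under 0.05, and DESeq2 called 1 higher, at Pcdha6, Pcdha7 or Pcdha7-g. In 29 members, against 13.2% of all genes, all Brd8-guide libraries lay below all NT libraries. Of the 19, 11 were gamma, 7 beta and 1 alpha. The A-type gene Pcdhga11 had 18.9, 16.1 and 12 CPM in Brd8-guide libraries, against 31.1, 27.2 and 29.2 CPM in NT libraries (-0.89 ± 0.2, adjusted p = 0.0012). The B-type gene Pcdhgb6 had 14.2, 16.6 and 16.1 CPM in Brd8-guide libraries, against 25.5, 30.3 and 24.7 CPM in NT libraries (-0.78 ± 0.177, adjusted p = 0.00137). Pcdhga7 had 43.9, 49.0 and 31.8 CPM in Brd8-guide libraries, against 60.4, 62.1 and 81.0 CPM in NT libraries (-0.70 ± 0.16, adjusted p = 0.00146). In these 3 genes no Brd8-guide library reached an NT library, and each passed under all 14 alternatives tried. The count of 19 was 9 without Brd8 day 11 replicate 1 and 9 without NT day 11 replicate 3, which is the NT library of low agreement.

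In Brd8-guide libraries, 8 of 12 neuron markers fell at day 7, 9 at day 9 and 1 at day 11. Their sums at days 7 and 9 were 2977 to 3434 and 3928 to 4847 CPM, against 4350 to 4607 and 6186 to 7182 CPM in NT libraries. At day 11 the sums overlapped, at 4876 to 5588 CPM in Brd8-guide libraries, against 5462 to 5883 CPM in NT libraries. At day 9, 2 of 7 tested oligodendrocyte precursor markers rose, with sums of 152 to 227 CPM in Brd8-guide libraries, against 46.0 to 67.6 CPM in NT libraries, and 2 of 7 astroglial markers rose, with sums of 301 to 321 CPM in Brd8-guide libraries, against 230 to 258 CPM in NT libraries. At day 11, 4 oligodendrocyte precursor markers fell, and 3 astroglial markers fell and 1 rose. The 10 neural progenitor markers summed to 2570 to 2705 CPM in Brd8-guide libraries at day 11, against 2990 to 3059 CPM in NT libraries. Calls in that list went both ways over the 12 comparisons with NT, 15 higher and 17 lower, so the sum does not stand for each marker. The part of these cell types was not tested. Brd8 itself lies on chromosome 18, between positions 34598611 and 34624863 (GRCm38), on the alpha side of the clusters, so its guides target the chromosome that carries the members. Of 15 tested genes next to or between the clusters, such as Zmat2, Taf7 and Diaph1, 0 fell with Brd8 guides at any day (0 were lower at an unadjusted p under 0.05, and DESeq2 called 0 lower) and 2 rose at day 11. Over all genes, 3.45%, 7.81% and 7.48% fell at days 7, 9 and 11, and 10.3% rose at day 11. At such shares few or none of 15 genes would fall in a comparison. Whether the position of Brd8 bears on the members was not tested.

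Ezh2-guide cultures had fewer called members. Alpha genes summed to 106 ± 12.1 CPM in Ezh2-guide libraries at day 7, against 142 ± 8.93 CPM in NT libraries, and all 3 clusters lay below NT in every library of that day, at 0.747, 0.780 and 0.785 times. At day 9 the sums were 0.901, 0.944 and 0.907 times those of NT, with overlap in the alpha and beta sums. At day 11 they were 0.924, 0.804 and 0.738 times, with overlap in the alpha sum. The median log2 difference over the 59 members was -0.35, -0.16 and -0.33 at days 7, 9 and 11, with Eed guides it was -0.58, -0.41 and -0.60, and with Brd8 guides -0.51, -0.58 and -0.47. These comparisons share their NT libraries.

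No member was called in Ezh2-guide libraries at days 7 and 9 by edgeR, against 0.0658% of all genes lower and 0.0855% higher at day 7 and 0.0% in either direction at day 9. At an unadjusted p under 0.05, 21 members were lower and 1 higher at day 7 and 2 were lower and 0 higher at day 9, and DESeq2 called 1 and 0. In a fit of the Ezh2-guide and NT libraries of day 7 alone, 12 members were called. At day 7, 28 members, against 10.6% of all genes, had all Ezh2-guide libraries below all NT libraries, and 6 did at day 9, against 5.16%. At day 11, 2 members fell and 1 rose, against 2.70% and 5.22% of all genes, and 19 members, against 10.2%, were below NT without overlap. The rise was again that of Pcdha7-g. At an unadjusted p under 0.05, 17 members were lower and 1 higher at day 11, and DESeq2 called 9 lower and 1 higher. The 3 calls became 5 without NT day 11 replicate 2.

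The members that fell at day 11 with Ezh2 guides were Pcdhgc3 and Pcdhga7. Pcdhga7 had 37.5, 48.7 and 50.8 CPM in Ezh2-guide libraries, against 60.4, 62.1 and 81.0 CPM in NT libraries (-0.56 ± 0.158, adjusted p = 0.0193). The groups did not overlap, but the gene did not pass without Ezh2 day 11 replicate 1 (-0.45) or NT day 11 replicate 3 (-0.42). Of the 12 neuron markers, 0 were called with Ezh2 guides at any day by edgeR, with 3 lower at day 7 and 3 higher at day 11 at an unadjusted p under 0.05, and DESeq2 called 1 lower at day 7. Their summed level at day 7 was 3595 to 4090 CPM in Ezh2-guide libraries, against 4350 to 4607 CPM in NT libraries, and at day 11 it was 5514 to 6038 CPM, against 5462 to 5883 CPM in NT libraries. At day 11, 2 of 7 oligodendrocyte precursor markers fell, with sums of 195 to 321 CPM in Ezh2-guide libraries, against 330 to 482 CPM in NT libraries. At the same day 2 of 7 astroglial markers fell, with sums of 382 to 403 CPM in Ezh2-guide libraries, against 456 to 506 CPM in NT libraries, and 3 of 10 neural progenitor markers rose and 3 fell. Astroglial sums had been above NT at days 7 and 9, at 254 to 275 and 260 to 278 CPM, against 211 to 231 and 230 to 258 CPM. Oligodendrocyte precursor sums were above NT at day 9, at 69.8 to 139 CPM against 46.0 to 67.6 CPM. The part of these cell types in the differences seen with Ezh2 guides was not tested.

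Eed and Ezh2 guides target subunits of the same complex and were compared directly at day 11. No member differed between Eed-guide and Ezh2-guide libraries by edgeR, against 1.53% of all genes higher and 1.35% lower with Eed guides. At an unadjusted p under 0.05, 0 members were higher and 4 lower with Eed guides, and DESeq2 called 0. The log2 difference of Eed over Ezh2 guides was below 0 for 50 of 59 members, with a median of -0.19, against a median of -0.01 over all genes. Alpha and gamma genes may share reads, so the members are not independent of each other. A p that misses the threshold does not show that the levels were equal.

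Nr6a1 guides gave no called member on any day by edgeR. Over all genes 0.145%, 0.138% and 0.0526% were higher and 0.0%, 0.0132% and 0.0263% lower at days 7, 9 and 11. At an unadjusted p under 0.05, 2, 3 and 1 members were higher and 0, 0 and 1 lower, and DESeq2 called 0, 0 and 2. With 2 libraries a day, the beta sum was 518 CPM in Nr6a1-guide libraries at day 7, against 459 CPM in NT libraries, and lay above NT in both. At day 9 the alpha, beta and gamma sums were 228, 627 and 618 CPM in Nr6a1-guide libraries, against 199, 554 and 558 CPM in NT libraries, each above all NT libraries. At day 11 the sums of 221, 680 and 794 CPM overlapped with the NT sums of 210, 700 and 776 CPM. The median member differed from NT by 0.05, 0.17 and 0.00 on the log2 scale.

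Pcdhgc3 was near its NT level at the first 2 days and below it at the last with Eed, Ezh2 and Brd8 guides. At day 7 it had 70.9, 53.7 and 56.4 CPM in Eed-guide libraries, 68.9, 60.2 and 69.6 CPM in Ezh2-guide libraries and 63.0, 53.0 and 62.1 CPM in Brd8-guide libraries, against 55.5, 69.6 and 58.7 CPM in NT libraries. At day 9 it had 104, 111 and 94.4 CPM in Eed-guide libraries, 111, 103 and 103 CPM in Ezh2-guide libraries and 108 and 90.4 CPM in Brd8-guide libraries, against 98.3, 103 and 101 CPM in NT libraries. At both days each guide group overlapped with NT, and none of these comparisons was called. At day 11 it had 130, 135 and 106 CPM in Eed-guide libraries, 145, 141 and 117 CPM in Ezh2-guide libraries and 144, 137 and 124 CPM in Brd8-guide libraries, against 175, 201 and 186 CPM in NT libraries. All 9 of those libraries were then below all 3 NT libraries. Nr6a1-guide libraries, at 224 and 201 CPM, were not below NT (log2 difference 0.18, adjusted p = 0.817).

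The day 11 differences of Pcdhgc3 were -0.60 ± 0.122 with Eed guides (adjusted p = 0.000292), -0.48 ± 0.122 with Ezh2 guides (adjusted p = 0.00908) and -0.47 ± 0.122 with Brd8 guides (adjusted p = 0.00499). They share the same NT libraries, so they are not independent of each other. The Eed and Brd8 calls held under all 14 alternatives, and the Ezh2 difference was -0.39 and did not pass without Ezh2 day 11 replicate 3. At day 7 the Eed difference had been -0.01 ± 0.128 and at day 9 0.03 ± 0.123. The change in the Eed difference between days 7 and 11 was -0.59 ± 0.177 (adjusted p = 0.0378), and it passed in 13 of 20 alternatives, whose adjusted p ranged between 0.00139 and 0.159. It did not pass without NT day 7 replicate 1 (-0.51) or 3 (-0.56), without Eed day 7 replicate 1 (-0.45), without Eed day 11 replicate 3 (-0.49), without NT day 11 replicate 2 (-0.53) or 3 (-0.59), or without both low-agreement libraries (-0.49, adjusted p = 0.159). The same change with Ezh2 guides was -0.60 ± 0.176 (adjusted p = 0.0769) and with Brd8 guides -0.43 ± 0.177 (adjusted p = 0.184), neither past the threshold.

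**Figure D5:**
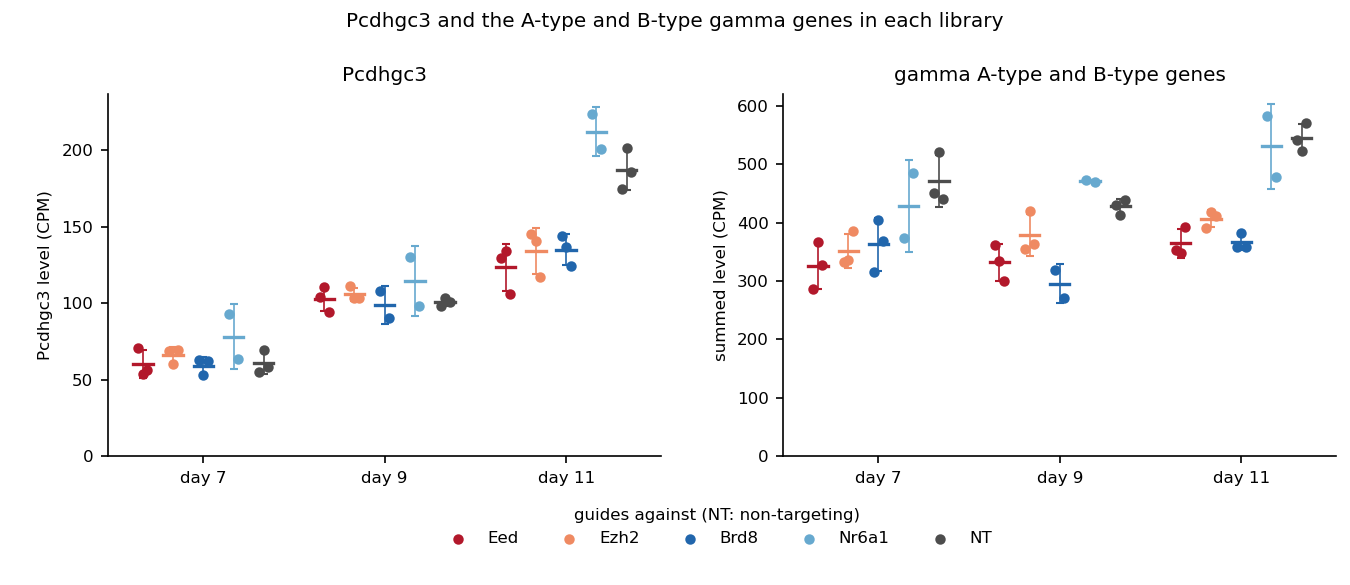
CPM of Pcdhgc3 (left) and summed CPM of the A-type and B-type gamma genes (right) in each library (points), with group means (bars) and SD (whiskers), by guide at days 7, 9 and 11. In the left panel the Eed, Ezh2 and Brd8 libraries lie near the NT libraries at days 7 and 9 and between 106 and 145 CPM at day 11, below the NT libraries at 175 to 201 CPM, and in the right panel the Eed and Brd8 libraries lie below NT on all 3 days.

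As a result of these values, the share of Pcdhgc3 in all gamma CPM was above NT early and near it late. With Eed guides it was 15.2%, 22.6% and 24.1% at days 7, 9 and 11, against 11.1%, 18.1% and 24.2% in NT. The Eed-guide and NT shares overlapped at day 11 only. The A-type genes were lower with Eed guides on all days, at 218, 231 and 262 CPM, against 311, 300 and 383 CPM in NT, and the B-type genes were at 108, 101 and 103 CPM, against 160, 128 and 162 CPM in NT. The C-type sum was 75.5, 124 and 148 CPM with Eed guides, against 78.9, 131 and 231 CPM in NT, overlapping with NT at days 7 and 9 and below it at day 11.

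Over the change of each guide's difference between days 7 and 11, Eed guides had 1 member higher and 1 lower, against 4.01% and 2.32% of all genes. The lower one was Pcdhgc3 and the higher one Pcdha7-g. For Ezh2, Brd8 and Nr6a1 guides edgeR called 0 members, with 3, 3 and 1 higher and 3, 5 and 0 lower at an unadjusted p under 0.05, and DESeq2 called 3, 2 and 2. Over all genes, 1.01%, 2.98% and 0.0395% were higher and 0.408%, 1.57% and 0.0723% lower.

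The members called in most of the 12 comparisons with NT were Pcdha10, Pcdhb11, Pcdhb15, Pcdhb18 and Pcdhga5, each lower in 4. Several of these calls rested on single libraries. Pcdha10 with Brd8 guides at day 7 passed in 8 of 14 alternatives and lost its call without any 1 of the 6 libraries (-1.35 to -1.10). Pcdhb18 passed in 9 of 14 with Brd8 guides at day 7 and Pcdhga5 in 9 of 14 with Eed guides at day 9, against 14 of 14 for Pcdhb15 and Pcdhga5 with Eed guides at day 11. Pcdha10 and Pcdha11 were below NT in 12 of 12 comparisons, passed or not. Pcdhb18 had 40.7, 32.3 and 53.3 CPM in Eed-guide libraries and 40.0, 41.4 and 44.7 CPM in Brd8-guide libraries at day 11, against 59.1, 59 and 70.7 CPM in NT libraries. All 6 of those guide libraries were below the 3 NT libraries. Outside the Pcdha6, Pcdha7 and Pcdha7-g names, edgeR gave 84 calls over the 12 comparisons, all of them lower and 0 higher. DESeq2 also called 0 higher, and at an unadjusted p under 0.05 there were 5 higher, all with Nr6a1 guides, and 227 lower. Over all genes, edgeR called between 0% and 10.6% lower and between 0% and 13.3% higher in a comparison. The comparisons of a day share their NT libraries, and alpha and gamma genes may share reads. These calls are therefore not independent of each other.

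Protocadherins outside the clusters moved in both directions. Of 12 such genes, 4 fell at day 7 with Eed guides, and 5 fell and 2 rose at day 11. Pcdh9 averaged 81.2 ± 5.71 CPM in Eed-guide libraries at day 11, against 163 ± 14.2 CPM in NT libraries (log2 difference -1.0, adjusted p = 0.000131, n = 3 each). Pcdh15, known for its role in hair cell tip links, averaged 7.02 ± 0.315 CPM in Eed-guide libraries, against 24.6 ± 4.7 CPM in NT libraries (-1.81, adjusted p = 1.45e-05). Pcdh18 went the other way, with 119 ± 4.32 CPM in Eed-guide libraries, against 68.4 ± 4.92 CPM in NT libraries (0.80, adjusted p = 1.15e-07). With Brd8 guides at day 11, Pcdh15 was at -1.30 and Pcdh18 at 0.75, and 3 of the 12 fell and 2 rose. In NT, 9 of the 12 rose and 1 fell between days 7 and 11, among them Pcdh15 (2.85) and Pcdh10 (1.70).

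Genes near the clusters were not called lower. Of 15 tested neighbours, 0 fell in any of the 12 comparisons with NT by edgeR or DESeq2, and 2 were lower at an unadjusted p under 0.05 over all 12. Over all genes, between 0% and 10.6% fell in a comparison by edgeR, shares at which few or none of 15 genes would fall. Tmco6 rose at day 11 with Eed guides (0.90, adjusted p = 0.0105; 0.78 and 0.73 and not past it without Eed replicate 2 or NT replicate 3, and 0.91 and not past it with only the groups compared in the fit) and with Brd8 guides (1.02, adjusted p = 0.00503). Their summed level at day 11 was 330 to 378 CPM with Eed guides and 344 to 356 CPM with Brd8 guides, against 320 to 345 CPM in NT.

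Among 19 tested genes for factors known to act on the clusters (CTCF, cohesin and its loaders, DNA methyltransferases and repressive chromatin proteins), 14 fell and 2 rose between NT days 7 and 11. Dnmt1, the maintenance DNA methyltransferase, averaged 168 ± 8.6 CPM at day 11, against 385 ± 8.29 CPM at day 7 (-1.19, adjusted p = 1.87e-14), and Dnmt3a, a de novo methyltransferase, 209 ± 4.0 CPM at day 11, against 87.3 ± 13.4 CPM at day 7 (1.26, adjusted p = 3.91e-14). With Eed guides at day 11, 5 of 19 rose and 0 fell by edgeR, with 2 lower at an unadjusted p under 0.05 and 2 called lower by DESeq2. Dnmt1 averaged 223 ± 8.54 CPM in Eed-guide libraries, against 168 ± 8.6 CPM in NT libraries (0.41, adjusted p = 0.000404), and the cohesin gene Rad21 246 ± 17.4 CPM, against 199 ± 13.2 CPM in NT libraries (0.30, adjusted p = 0.00201). With Brd8 and with Ezh2 guides 3 of 19 rose at day 11.

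Of 16 genes for proteins that bind protocadherins or act downstream of them, 3 fell at day 11 with Eed guides and 2 with Brd8 guides. Wasf1, a subunit of the WAVE complex, which drives actin branching, averaged 88.2 ± 4.68 CPM in Eed-guide libraries, against 145 ± 12.5 CPM in NT libraries (-0.71, adjusted p = 4.51e-08). At day 7, Celsr3, a seven-pass cadherin of neurons, averaged 251 ± 33.3 CPM in Eed-guide libraries and 294 ± 27.0 CPM in Brd8-guide libraries, against 434 ± 5.82 CPM in NT libraries (-0.79 and -0.56). Both genes passed in each of the 14 alternatives tried for those comparisons.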

How the data were processed

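RNA was measured in 41 libraries of 15 groups. The authors deposited 1 table of estimated counts per gene, which need not be whole numbers, and their processing notes name mm10 and DESeq2; for the aligner and the counter, a name is not given in the sources used here. Label fields for the molecule and library source name the material as genomic, against the RNA protocol in the labels and the values. Counts were rounded to whole numbers and tested with edgeR 4.0.16 (R 4.3.3, limma 3.58.1) by a quasi-likelihood fit over all 41 libraries and 15 groups, with TMM scaling and the filterByExpr filter, which kept 15204 genes and left out 9206. The groups shared 1 estimate of spread (common coefficient of variation 0.182). Tests had 2 sides, and Benjamini-Hochberg adjustment ran over all genes tested, with a threshold of 0.05. CPM used TMM-scaled totals, and cluster sums used counts before rounding. Named members had an adjusted p under 0.05, up to 8 per comparison and direction with the smallest p, or the highest level in their cluster; from each related list up to 3 called genes could be named. The symbol rule for the members used no measured value, but the rule and the lists were set with earlier results of these data known. The scripts were tested on simulated data for 1 comparison, Eed against NT at day 11. Of 200 genes changed by known folds, 89 were called in the right direction, with 2 false calls. A gene that was not called may therefore still differ. Alternatives were DESeq2 1.42.0, its size factors in edgeR, no filter, unrounded counts, a replicate block, only the groups compared, each library left out, the 2 low-agreement libraries left out (correlation under 0.95 with their group) and, chosen after seeing the data, Pcdha6, Pcdha7 and Pcdha7-g summed.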

Additional observations from a re-analysis of the deposited data

Results flagged for a closer look

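The change in the Eed difference from NT between day 7 and day 11 passed the test in 2 of 59 members, 1 higher and 1 lower, against 4.01% and 2.32% of all genes, so the members' share was below the background in both directions. Pcdhgc3 changed by -0.59 ± 0.177 on the log2 scale and passed in 13 of 20 alternatives. Without the low-agreement libraries it was at -0.49 and did not pass (adjusted p = 0.159), and Pcdha7-g was the member still called. With Pcdha6, Pcdha7 and Pcdha7-g summed, Pcdhgc3 was the member called. Pcdha7-g had a fitted change of 10.89, a value that depends on the prior count of the fit and bounds nothing, since all 3 NT libraries of day 11 had no counts for it, and it is not read as a change of a gene.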

How the results depend on the processing

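Of the named results recomputed under each alternative, 1068 kept their direction and side of the threshold, 154 no longer passed, and 7 changed sign, all of them differences in Pcdhgc3 that were not called and had a library left out. Leaving out 1 library at a time, the Pcdhgc3 differences of this kind spanned -0.15 to 0.087 and -0.020 to 0.088 with Eed guides at days 7 and 9, and -0.11 to 0.060 and -0.16 to 0.096 with Brd8 guides. Without the filter on low counts, more genes were tested and members called were 25 and 12 with Eed guides at days 7 and 9, 7 and 11 with Ezh2 guides at days 7 and 11, 19 and 26 with Brd8 guides at days 7 and 9, 3 with Nr6a1 guides at day 11, 15 in NT day 11 over day 9, 1 in Eed over Ezh2, and 5, 4, 5 and 2 in the changes between days for Eed, Ezh2, Brd8 and Nr6a1 guides. With only the groups compared, they were 3 for Eed at day 9, 12 and 7 for Ezh2 at days 7 and 11, 11 for Brd8 at day 7, 1 for Nr6a1 at day 11 and 2 for the Ezh2 change between days. DESeq2 called 1 and 10 for Ezh2 at days 7 and 11, 12 for Brd8 at day 7, 2 for Nr6a1 at day 11, 13 for NT day 11 over day 9, and 3, 2 and 2 for the Ezh2, Brd8 and Nr6a1 changes between days. DESeq2 size factors gave 7 for Ezh2 at day 11. Without the low-agreement libraries there were 9 for Brd8 at day 11 and 1 for the Eed change between days (Pcdha7-g), and summing the 3 alpha names also gave 1 there (Pcdhgc3). Other causes were not tested. Leaving out 1 library at a time, members called ranged between 6 and 14, 0 and 9, and 15 and 26 for Eed at days 7, 9 and 11, between 2 and 5 for Ezh2 at day 11, between 0 and 9, 2 and 14, and 9 and 17 for Brd8 at days 7, 9 and 11, between 10 and 17, 3 and 10, and 20 and 27 for NT day 9 over 7, 11 over 9 and 11 over 7, and between 0 and 2 and 0 and 1 for the Eed and Brd8 changes between days.

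Replicate numbers did not pair the libraries: over 74 same-numbered pairs the deviations correlated between -0.115 and 0.104 (median 0.00711), and 1 pair was over 0.1. A fit with a replicate block called 16 and 25 members for Eed at days 7 and 11, 18 for Brd8 at day 9 and 1 for the Ezh2 change between days. A count of 0 allowed up to 0.0748 to 0.370 CPM, and the mean level of Pcdhb1, 0.272 CPM, lay within that limit.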
